A study of Mus musculus with 16 samples.

Results

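The genes described here were 10 members of the bone morphogenetic protein (BMP) pathway, chosen by name from the 24982 genes of the count table. They were the ligands Bmp2, Bmp4 and Bmp7, the secreted antagonists Nog (noggin) and Grem1 (gremlin 1), the inhibitory Smads Smad6 and Smad7, and the target genes Id1, Id2 and Id3. All 10 were present in both the count table and the table of TPM values (transcripts scaled by gene length and by the total of each tumor). BMP ligands bind pairs of type I and type II receptors on the cell surface, which phosphorylate receptor-regulated Smads that enter the nucleus with Smad4 and switch on targets such as the Id genes. Nog and Grem1 bind ligands outside the cell, and Smad6 and Smad7 block the signal inside it. In the embryo, BMP signals pattern the dorsal neural tube, the neural crest and the skeleton, and Id proteins hold progenitors back from differentiation by binding E proteins.

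RNA was sequenced from 16 primary rhabdoid tumors, each from a different mouse of genotype Smarcb1flox/flox;R26-CreERT2 on a mixed genetic background. Tamoxifen given to the pregnant dam activates a Cre recombinase that R26 drives in all tissues, and by the labels this deletes Smarcb1, a subunit of the SWI/SNF chromatin remodeler. Tissue without Cre was not analysed here. The 5 Shh tumors lay within the central nervous system, were all induced at embryonic day 6 (E6) and were taken at 30 to 180 days. The 6 intracranial Myc tumors lay inside the skull but outside the brain, of which 4 had tamoxifen at E8, 1 at E7 and 1 at E6, and were taken at 52 to 170 days. The 5 extracranial Myc tumors came from the jaw, nose, mouth and back, of which 4 had tamoxifen at E8 and 1 at E6, and were taken at 80 to 210 days. Groups followed the labelled location, and the names Shh and Myc are those that the study gives to the matching subgroups. The labels put the nose tumor of mouse 43990A outside the skull and a supplementary table of the study puts it inside, and the labelled site was used here. Subgroup and location cannot be told apart in this design, and the day of tamoxifen nearly follows the subgroup.

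Total counts lay between 17889968 and 110177889 per tumor. Smarcb1 itself lay between 3.99 and 58.1 TPM in the Shh tumors, with a median of 7.08 and the highest value in mouse 29048, and between 6.48 and 43.7 TPM in the Myc tumors. Deletion was not verified in these libraries, since the counts are per gene and no undeleted tissue was compared. The tumors were pieces of tissue, so other cells contributed RNA, and fewer cells of a type and less RNA per cell cannot be told apart in these bulk libraries. The summed TPM of 6 fibroblast markers lay between 105 and 526 in Shh and between 545 and 7795 in Myc tumors, with no overlap, and all 6 genes were called lower in Shh. That of 6 leukocyte markers lay between 247 and 357 in Shh and between 344 and 4286 in Myc tumors. Among the endothelial markers, 2 of 7 were called lower in Shh, and their sums overlapped, from 75.4 to 161 and from 59.1 to 250 TPM. Of 5 skeletal muscle markers, 3 were called lower in Shh (median log2 fold change -6.01), and their sum lay between 0.768 and 4.41 TPM in Shh and between 2.11 and 583 TPM in Myc tumors, with the highest value in R26P123. The sum of 5 choroid plexus markers reached 204400 TPM in the intracranial Myc tumor of mouse R26P115, of which 199500 TPM were Ttr, and 4640 TPM in the Shh tumor of 29048. That Shh tumor also held the highest sums of 5 oligodendrocyte and 5 neuron markers, at 5534 and 3579 TPM beside Shh medians of 97.8 and 456 TPM, and 4 and 2 of these genes were called higher in Shh. Without 29048, 0 of the oligodendrocyte and 2 of the neuron genes were called higher, and 5 of the fibroblast and 1 of the endothelial genes lower, in Shh.

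Counts of Shh and Myc tumors were tested with edgeR (quasi-likelihood), and a gene was called at a Benjamini-Hochberg adjusted p under 0.05 over all genes and an absolute log2 fold change above 1. Of the 10 genes, 3 were called between Shh and Myc tumors, and all 3 were lower in Shh: Smad7, Bmp4 and Grem1. Of all 21854 genes tested, 5689 were called, 13.1% lower and 12.9% higher in Shh, so that 3 of 10 called is near the share among all genes. The median log2 fold change of the 10 genes was -1.26, beside -0.15 over all genes. Fold changes in this comparison depend on the scaling, since those scaled by library size alone lay 0.30 higher (median over genes) than after TMM normalization. Those of limma on log2(TPM + 1) lay 0.55 higher, where the test and the scale of the data both changed. With TMM, 2829 genes were called higher and 2860 lower in Shh, with library sizes alone 3769 and 2282, and with limma on log2(TPM + 1) 4082 and 1324.

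**Figure D1:**
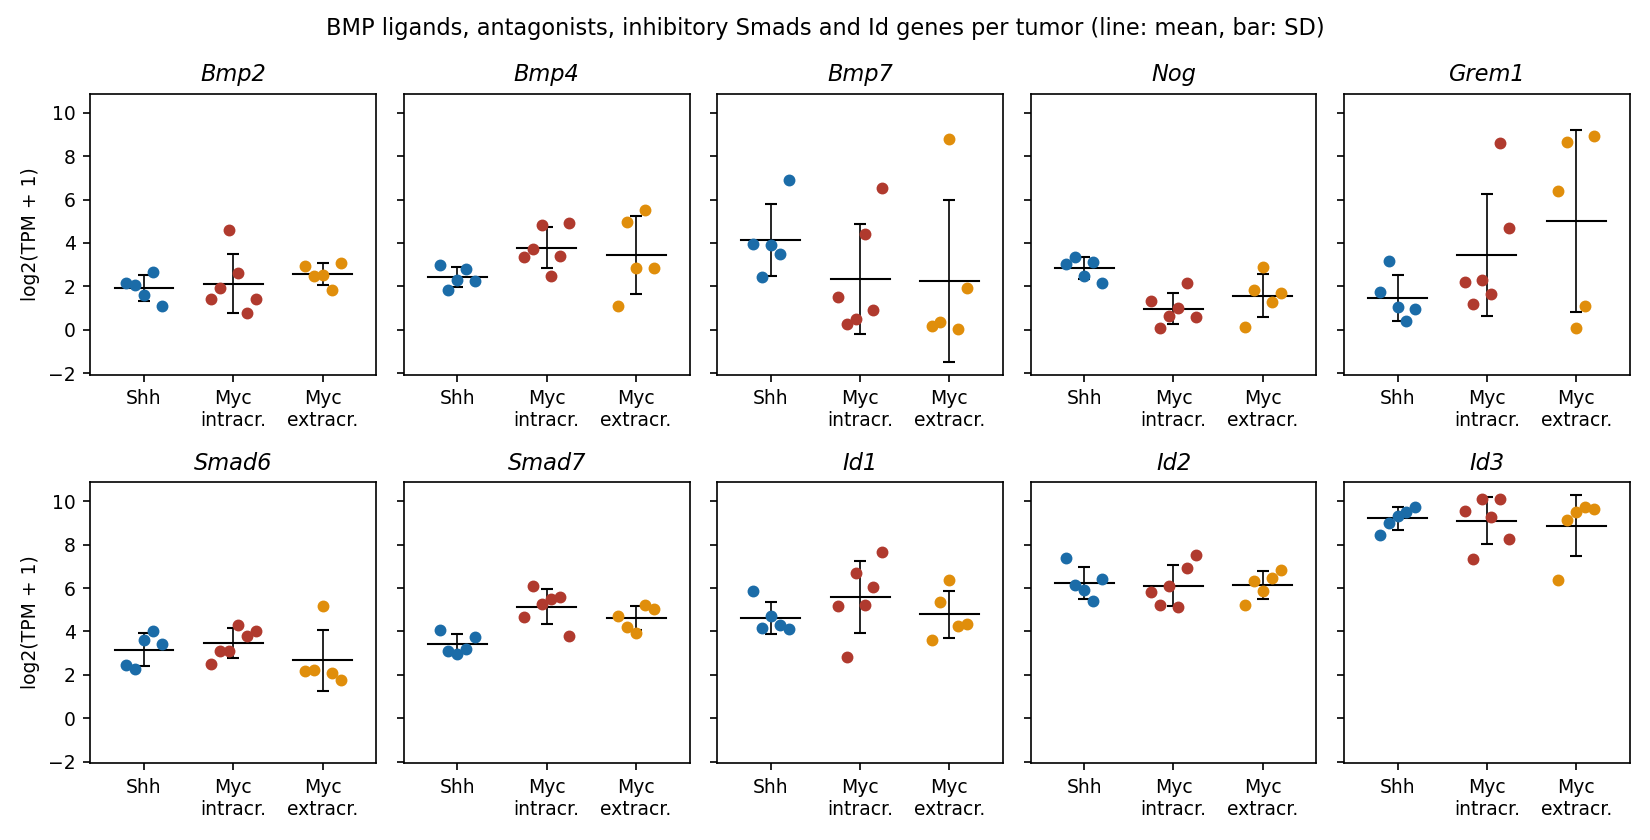
Each point is 1 tumor, on the log2(TPM + 1) scale, in Shh (5), intracranial Myc (6) and extracranial Myc (5) tumors, with the mean as a line and the SD as a bar. Smad7 sits lower in the Shh than in 9 of the 11 Myc tumors, Bmp7 and Grem1 spread widest among Myc tumors, and Id3 is the highest of the 10 genes in each group.

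Upstream sequences are shown for 3 genes called between the subgroups, to set side by side the DNA before the starts of a ligand (Bmp4), an antagonist (Grem1) and a target gene (Id4, a further Id gene described below). RefSeq (GRCm38.p6) gave such a window for 5 of the 10 genes and for Id4, and the 3 printed overlap no GENCODE exon. Each runs 5′ to 3′ on the strand of the gene and holds the 250 bases before the start. Capitals mark matches on either strand to GGCGCC, a GC box known from BMP-responsive promoters, or to CAGAC, a core recognised by Smads.
Bmp4, chr14:46390670-46390919, minus strand: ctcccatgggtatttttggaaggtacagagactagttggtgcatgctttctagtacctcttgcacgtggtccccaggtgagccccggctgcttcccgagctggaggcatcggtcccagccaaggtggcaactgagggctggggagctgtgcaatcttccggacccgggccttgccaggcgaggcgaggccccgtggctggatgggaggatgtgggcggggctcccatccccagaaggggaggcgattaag
Grem1, chr2:113758649-113758898, minus strand: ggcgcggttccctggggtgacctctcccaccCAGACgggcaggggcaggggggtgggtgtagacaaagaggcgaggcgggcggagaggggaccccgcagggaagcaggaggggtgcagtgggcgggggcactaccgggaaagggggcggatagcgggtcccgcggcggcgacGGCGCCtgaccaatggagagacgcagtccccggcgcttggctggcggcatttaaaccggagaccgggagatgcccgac
Id4, chr13:48260866-48261115, plus strand: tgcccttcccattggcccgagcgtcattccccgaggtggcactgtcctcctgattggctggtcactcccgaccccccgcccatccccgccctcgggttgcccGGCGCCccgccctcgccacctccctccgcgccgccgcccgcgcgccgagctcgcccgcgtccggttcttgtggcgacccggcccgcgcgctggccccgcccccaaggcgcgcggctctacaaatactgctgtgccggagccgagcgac
The window of Bmp4 held neither motif, that of Grem1 held 1 match to each, and that of Id4 held 1 match to GGCGCC. Of 32851 RefSeq windows of this length, 9.59% held GGCGCC and 42.2% held CAGAC. The matches are a description of letters, and binding was not measured. GC content was 63.2% for Bmp4, 72.0% for Grem1 and 75.6% for Id4.

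Of the ligands, Bmp4 differed between the subgroups and Bmp2 and Bmp7 did not pass the test. Bmp4 (ENSMUSG00000021835.15, chromosome 14 of GRCm38, 46383520 to 46390669), a ligand of dorsal and facial development, was expressed at 7.05, 2.58, 3.98, 6.03 and 3.76 TPM in the Shh tumors. It reached 30.5, 45.5, 6.31, 6.11 and 1.17 TPM in the extracranial Myc tumors, and 4.63 to 28.9 TPM (median 10.8) in the intracranial ones. Of the 11 Myc tumors, 7 lay above every Shh tumor, 3 within their range and 1, the back tumor of 43825B, below it. Shh over Myc, the log2 fold change was -2.38 (standard error 0.73, edgeR adjusted p = 0.0191). It was called against the intracranial tumors alone (-2.30, edgeR adjusted p = 0.0106) and against the extracranial tumors alone (-2.49, edgeR adjusted p = 0.0488). Among tumors induced at E6, with 5 Shh against 2 Myc, it was -0.76 (edgeR adjusted p = 0.514), and without the Shh tumor of 38594A it was -2.23 (edgeR adjusted p = 0.0520). Within the numbered mice the value was -2.56 (edgeR adjusted p = 0.0790) and within the mice named R26P it was -2.26 (edgeR adjusted p = 0.315). With limma on log2(TPM + 1) Bmp4 was not called, at -1.19 (adjusted p = 0.129).

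Bmp7 (ENSMUSG00000008999.7, chromosome 2, 172868012 to 172940321), a ligand of kidney, eye and skeletal development, was the ligand with the highest TPM of the 3 in all 5 Shh tumors. Its levels there were 14.7, 4.48, 14.0, 10.4 and 118 TPM. In the Myc tumors it ran from 0.0202 to 442 TPM with a median of 0.865, and 8 of 11 lay below every Shh tumor. The extracranial values were 442 TPM in 43990A and 0.143, 0.281, 0.0202 and 2.75 TPM in the others, and the intracranial values included 91.1 TPM in R26P115 and 20.1 TPM in 29225D. The 2 highest Myc values were thus in the tumors with a disputed site and with choroid plexus markers. Its log2 fold change was -1.16 (standard error 1.81, edgeR adjusted p = 0.638), although most Myc tumors lay below the Shh tumors. Without 43990A its sign turned, at 0.78 (edgeR adjusted p = 0.701), and it was 1.84 with limma on log2(TPM + 1) (adjusted p = 0.315).

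Bmp2 (ENSMUSG00000027358.6, chromosome 2, 133552159 to 133562885), a close relative of Bmp4, was low in most tumors, from 1.15 to 5.31 TPM in Shh and from 0.734 to 23.5 TPM in Myc. A single intracranial tumor, of 29941C, held the highest value, and 7 of 11 Myc tumors lay within the Shh range. The log2 fold change of -1.37 (standard error 0.67, edgeR adjusted p = 0.125) was not called, and it was -0.82 without 29941C (edgeR adjusted p = 0.234). Which ligand was highest also varied among the Myc tumors, with Bmp4 first in 6, Bmp7 in 3 and Bmp2 in 2 of the 11.

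The log2 fold changes of the antagonists Grem1 and Nog had opposite signs, and that of Grem1 alone was called. Grem1 (ENSMUSG00000074934.3, chromosome 2, 113746164 to 113758646), an antagonist of limb and gut mesenchyme, measured 2.33, 8.06, 1.09, 0.338 and 0.945 TPM in the Shh tumors. The extracranial Myc tumors held 490 and 401 TPM in the 2 jaw tumors, 83.2 TPM in the back tumor, 1.17 TPM in the mouth tumor and 0.0445 TPM in the nose tumor of 43990A. The intracranial ones ran from 1.26 to 391 TPM with a median of 3.76, with the highest value in R26P170. Myc tumors spanned the whole Shh range, with 5 of 11 above it and 1 below it, so that the fold rests on a few tumors of very high level. The log2 fold change was -6.15 (standard error 2.06, edgeR adjusted p = 0.0303), while the median was 1.09 TPM in Shh and 3.89 TPM in Myc tumors. Leaving out the Shh tumor of 29048, 29050A, R26P98 or R26P87 gave log2 fold changes of -6.12 to -5.87 with edgeR adjusted p values of 0.0640 to 0.0701, and without both R26P115 and 29048 Grem1 was at -6.23 (edgeR adjusted p = 0.0583). Among tumors induced at E6 it was called, at -7.11 (edgeR adjusted p = 0.00705). Within the numbered mice the log2 fold change was -4.64 (edgeR adjusted p = 0.188) and within the R26P mice -9.37 (edgeR adjusted p = 0.164). Nor was Grem1 called with limma on log2(TPM + 1), at -2.69 (adjusted p = 0.1745).

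Nog (ENSMUSG00000048616.4, chromosome 11, 89300638 to 89302332), which encodes the antagonist of the notochord and dorsal neural tube, had its highest mean TPM in the Shh tumors. The Shh tumors held 7.29, 9.34, 4.55, 7.73 and 3.40 TPM. In the Myc tumors the range was 0.0595 to 6.53 TPM with a median of 1.46. No Myc tumor lay above the Shh range, 9 of 11 lay below all Shh tumors, and the 2 within it were 43990A at 6.53 TPM and R26P170 at 3.51 TPM. At 1.32, its log2 fold change (standard error 0.72) was called or not depending on the test. It was not called with edgeR (adjusted p = 0.166) or DESeq2 (adjusted p = 0.0956) and was called with limma on log2(TPM + 1), at 1.58 (adjusted p = 0.00700). Counts of Nog were low, from 1 to 224 per tumor.

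Smad7 (ENSMUSG00000025880.11, chromosome 18, 75367529 to 75395935), which blocks both BMP and TGF-beta receptors and is itself induced by their signal, had the smallest adjusted p of the 10 genes. The Shh tumors held 15.6, 7.49, 6.69, 8.26 and 12.2 TPM. The extracranial Myc tumors held 25.4, 17.8, 14.0, 35.9 and 31.7 TPM, and the intracranial ones 12.7 to 66.6 TPM (median 41.1). The ranges met only through the Shh tumor of 29048, at 15.6 TPM, and the Myc tumors of 43990A and R26P115, at 14.0 and 12.7 TPM. None of the 10 genes had fully separate TPM ranges in the 2 subgroups, whereas 20.5% of the 14803 genes with a mean count of 50 or more did.

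The log2 fold change of Smad7 was -2.23 (standard error 0.40, edgeR adjusted p = 0.000536), a 4.69-fold lower level in Shh. It was -2.52 without R26P115 and 29048 (edgeR adjusted p = 0.000374) and -2.44 among tumors induced at E6 (edgeR adjusted p = 0.00706). Within the numbered mice it was -2.37 (edgeR adjusted p = 0.00687). Within the 5 R26P mice it was -2.13 (edgeR adjusted p = 0.224), where edgeR called none of the genes tested and 3514 of 20347 had an unadjusted p under 0.05. Smad7 was called against the intracranial (-2.49, edgeR adjusted p = 0.00136) and the extracranial Myc tumors (-1.83, edgeR adjusted p = 0.00358). With limma on log2(TPM + 1) Smad7 was called with a smaller log2 fold change, at -1.505 (adjusted p = 0.00252). The fibroblast, leukocyte and skeletal muscle markers given above moved with the subgroups in the same direction as Smad7, Bmp4 and Grem1. The sum of 5 bone and cartilage markers went the other way, with medians of 118 TPM in Shh and 7.96 TPM in Myc tumors. Of these 5, Col2a1 was called higher in Shh and 4 were not called. R26P123, highest in muscle markers, was also highest in Grem1. R26P170, lowest in muscle markers of the Myc tumors at 2.11 TPM, held 391 TPM of Grem1. The part of these markers in the differences was not tested, and relations with muscle markers were not computed. Relations of the 3 genes with fibroblast, leukocyte and endothelial markers within the Myc tumors are given below.

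Smad6 (ENSMUSG00000036867.7, chromosome 9, 63953076 to 64022059), which acts mainly on BMP receptors, was not called. It lay between 3.79 and 15.4 TPM in Shh and between 2.44 and 35.2 TPM in Myc tumors, with the highest value in 43990A. Of the 11 Myc tumors, 2 lay above, 4 below and 5 within the Shh range. For Smad6 the log2 fold change was -0.73 (standard error 0.61, edgeR adjusted p = 0.364), and it was -0.37 without 43990A (edgeR adjusted p = 0.605) and 0.04 with limma on log2(TPM + 1) (adjusted p = 0.955).

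**Figure D2:**
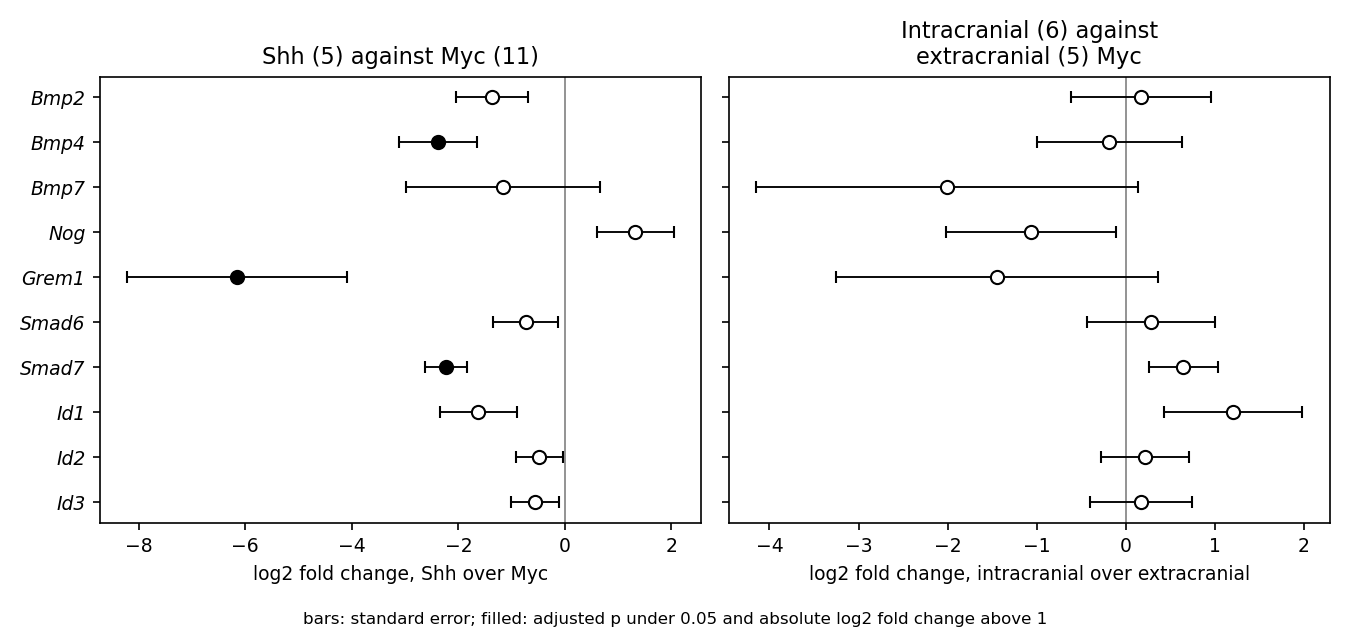
Log2 fold changes (points) with their standard errors (bars) are shown for Shh over Myc (left) and for intracranial over extracranial Myc tumors (right), with genes called as filled points. Smad7, Bmp4 and Grem1 are filled on the left and no gene on the right. The left panel uses edgeR with TMM scaling, and with limma on log2(TPM + 1) Bmp7, Id2, Id3 and Smad6 fall on the other side of 0.

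The Id genes of the set, whose products lack a DNA-binding region and sequester E proteins, were not called between the subgroups with edgeR. Id3 (ENSMUSG00000007872.3, chromosome 4, 136143497 to 136145755) had the highest TPM of all 10 genes in each group, with 619 ± 200 TPM (SD, n = 5) in Shh, 673 ± 392 (SD, n = 6) in intracranial and 604 ± 311 (SD, n = 5) in extracranial Myc tumors. Its lowest values were 82.3 TPM in 43825B and 162 TPM in 43992A, both Myc. For Id3 the log2 fold change was -0.56 (standard error 0.46, edgeR adjusted p = 0.350), and 0.20 with limma on log2(TPM + 1) (adjusted p = 0.792).

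Id2 (ENSMUSG00000020644.9, chromosome 12, 25093799 to 25097140) varied least, 5.42-fold between the lowest and the highest tumor. Group means were 83.8 ± 48.8 TPM (SD, n = 5) in Shh, 82.4 ± 57.8 (SD, n = 6) in intracranial and 74.9 ± 29.9 (SD, n = 5) in extracranial Myc tumors. The highest values of the Shh and Myc tumors, 166 and 181 TPM, were in 29048 and R26P115. A log2 fold change of -0.48 (standard error 0.43, edgeR adjusted p = 0.406) turned to 0.12 with limma on log2(TPM + 1) (adjusted p = 0.839). It was -0.88 without 29048 (edgeR adjusted p = 0.149), -0.23 without R26P115 (edgeR adjusted p = 0.637) and -0.63 without both (edgeR adjusted p = 0.177).

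Id1 (ENSMUSG00000042745.9, chromosome 2, 152736251 to 152737410) lay at 57.2, 16.9, 25.2, 19.0 and 16.1 TPM in the Shh tumors. The extracranial Myc tumors held 11.3, 40.1, 82.8, 18.4 and 19.6 TPM and the intracranial ones 6.09 to 199 TPM (median 50.5). The highest values of both subgroups were again those of 29048 and R26P115, and 5 of 11 Myc tumors lay within the Shh range. For Id1 the log2 fold change was -1.63 (standard error 0.72), which was not called with edgeR (adjusted p = 0.0929) and was called with DESeq2 at -1.59 (adjusted p = 0.0358). Without R26P115 and 29048 it was -1.59 (edgeR adjusted p = 0.0614), and without R26P115 alone -1.12 (edgeR adjusted p = 0.136). The part of the choroid plexus markers in the Id1 levels was not tested, and the relations of Id1 with endothelial and leukocyte markers are given below.

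Id4, the remaining Id gene, stood apart from these. It is a regulator of neural progenitors and astrocytes and was not among the 10 genes. Shh tumors held 273, 326, 210, 576 and 46.8 TPM, and Myc tumors 0.551 to 71.0 TPM (median 5.48), with the highest Myc value in R26P115. The ranges overlapped only between R26P115 and the Shh tumor of R26P87. For Id4 the log2 fold change was 4.05 (standard error 0.98, edgeR adjusted p = 0.00476), and 5.29 without R26P115 (edgeR adjusted p = 9.98e-05). Within the numbered mice it was 5.25 (edgeR adjusted p = 0.00175), and within the R26P mice 2.76 (edgeR adjusted p = 0.398).

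As a share of the summed TPM of Id1 to Id4, Id3 was the largest in all 16 tumors, with a median of 55.1% in Shh and 84.9% in Myc. Id4 was the second largest in 4 of 5 Shh tumors, with 4.64 to 42.0% (median 32.4%), and made up 0.0607 to 9.34% (median 0.701%) in Myc tumors. In the Myc tumors the second place was held by Id2 in 7 and by Id1 in 4. The neural progenitor markers, 5 genes, summed to 1637 to 3417 TPM in Shh and 14.5 to 278 TPM in Myc tumors, in the same direction as Id4, and their part in its level was not tested. Of the 5, Sox1, Sox2 and Fabp7 were called higher in Shh and Pax6 and Nes were not, Nes at a log2 fold change of -0.67 (edgeR adjusted p = 0.550), and Fabp7, with a mean of 1717 TPM in Shh, made up most of the sum.

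**Figure D3:**
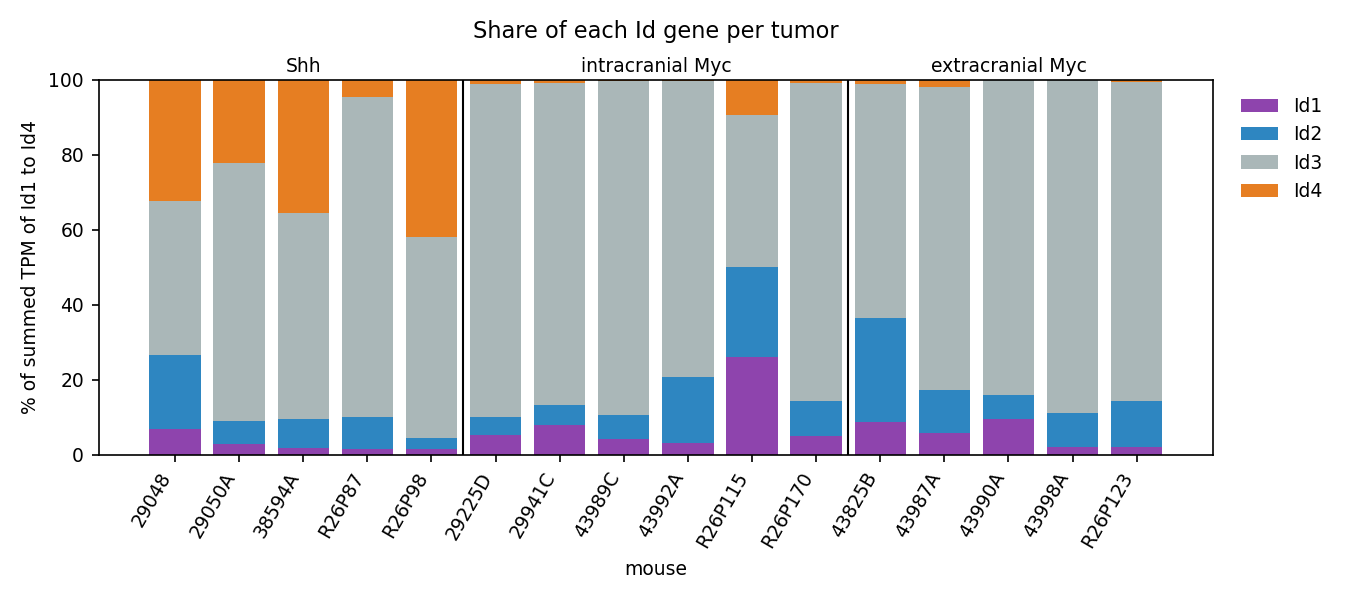
Each bar is 1 tumor, divided by the percent of the summed TPM of Id1, Id2, Id3 and Id4, in Shh, intracranial Myc and extracranial Myc tumors. Id3 takes the largest share in all 16, and Id4 takes 4.64 to 42.0% in Shh tumors and at most 9.34% in Myc tumors, in R26P115.

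Of 49 further genes of the pathway in 6 lists, 5 were called higher and 5 lower in Shh, no larger a share than the 12.9% and 13.1% of all genes. Among the receptors and co-receptors, 3 of 11 were higher and 1 lower in Shh, with a median log2 fold change of -0.29. Bmpr1b, a type I receptor, lay between 20.2 and 40.2 TPM in Shh and between 0 and 3.72 TPM in Myc tumors, without overlap, at a log2 fold change of 4.18 (edgeR adjusted p = 0.00418). The type II receptor Acvr2b, with a mean of 26.8 TPM in Shh and 3.23 TPM in Myc tumors, also had no overlap, at a log2 fold change of 2.49 (edgeR adjusted p = 3.96e-05). The co-receptor Rgmb was higher in Shh by 1.04 on the log2 scale (edgeR adjusted p = 0.00614), close to the fold threshold. Its call was lost without 29048, 38594A, R26P87, 43989C or 29225D, each left out in turn (0.86 to 0.997, edgeR adjusted p = 0.0104 to 0.0309), against the intracranial tumors alone (0.87, edgeR adjusted p = 0.0782) and at E6 alone (edgeR adjusted p = 0.0893).

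Acvr1, another type I receptor, was lower in Shh, with a mean of 20.5 against 75.2 TPM, with a log2 fold change of -2.39 (edgeR adjusted p = 0.00477). Bmpr1a and Bmpr2, the widely expressed type I and type II receptors, had log2 fold changes of -0.49 and -0.29 (edgeR adjusted p = 0.0912 and 0.175), and both turned positive with limma on log2(TPM + 1). Their mean levels were 85.9 and 37.2 TPM in Shh and 84.3 and 31.5 TPM in Myc tumors. The type I receptor genes Bmpr1b and Acvr1 therefore changed in opposite directions between the subgroups.

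Of 13 other antagonists, 1 was higher and 2 lower in Shh (median log2 fold change -1.50). Bmper, an extracellular BMP modulator, was higher in Shh by 1.58 on the log2 scale (edgeR adjusted p = 0.0141). The call of Bmper was lost without 29050A (1.29, edgeR adjusted p = 0.0614), against the extracranial tumors alone (1.60, edgeR adjusted p = 0.0607) and at E6 alone (2.08, edgeR adjusted p = 0.0705). Fstl3, a follistatin-like antagonist of activins, was lower by a log2 fold change of -3.49 (edgeR adjusted p = 0.000526), and Nbl1, of the same antagonist family as Grem1, by -2.56 (edgeR adjusted p = 0.00516), which limma on log2(TPM + 1) did not call (-1.63, adjusted p = 0.0530). Chordin (Chrd), follistatin (Fst) and the pseudoreceptor Bambi had log2 fold changes of -1.79, 1.61 and -1.04 and were not called (edgeR adjusted p = 0.184, 0.255 and 0.0801). Fst was called without 29941C (2.98, edgeR adjusted p = 0.0163) and with limma on log2(TPM + 1) (2.92, adjusted p = 0.0208), and Bambi without 43825B or 43992A (edgeR adjusted p = 0.0395 and 0.0450) and with DESeq2 (adjusted p = 0.0289).

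Of 12 other ligands, 1 was called, at a median log2 fold change of -1.62. Gdf5, a ligand of joint formation, had a log2 fold change of -6.58 (edgeR adjusted p = 0.0460), with 0 to 0.623 TPM in Shh and 0 to 130 TPM in Myc tumors, and it was 0.13 against the extracranial Myc tumors alone (edgeR adjusted p = 0.937). Its call was lost without any 1 of the 5 Shh tumors or without 43989C, 43992A or R26P170 (edgeR adjusted p = 0.0566 to 0.0960), and with limma on log2(TPM + 1) (-1.64, adjusted p = 0.279). Of 6 Smads and Smurfs (median -0.20), the ubiquitin ligase Smurf1 was lower in Shh, with a log2 fold change of -1.20 (edgeR adjusted p = 0.0117), and was not called with library sizes alone (-0.90, edgeR adjusted p = 0.0462) or with limma on log2(TPM + 1) (-0.52, adjusted p = 0.2455). The receptor-regulated Smad1, Smad5 and Smad9 had log2 fold changes of -1.35, 0.46 and 0.30, and their partner Smad4 one of -0.15, and none was called (edgeR adjusted p = 0.0994, 0.0813, 0.857 and 0.510). Smad1 was called with DESeq2 (adjusted p = 0.0485) and against the extracranial tumors alone (-1.90, edgeR adjusted p = 0.0449).

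Of 4 other target genes (median 0.73), Id4 alone was called, and the homeobox genes Msx1 and Msx2 had log2 fold changes of 0.13 and 1.11 (edgeR adjusted p = 0.943 and 0.424), of which Msx2 was called with DESeq2 (2.14, adjusted p = 0.0196) and with limma on log2(TPM + 1) and log2(TPM + 0.1) (1.52 and 2.58, adjusted p = 0.0317 for each). Of 3 E proteins, the partners of Id proteins (median 0.85), none was called with edgeR and TMM. Tcf12 had a log2 fold change of 0.85 at an edgeR adjusted p of 0.0469, under the fold threshold, and Tcf4 and Tcf3 had 1.10 and 0.34 (edgeR adjusted p = 0.132 and 0.374). Tcf12 passed the fold threshold without 29048 or R26P170 (1.045 and 1.04, edgeR adjusted p = 0.0177 and 0.00718), and Tcf4 was called without 43990A (1.495, edgeR adjusted p = 0.0212). Both were called with limma on log2(TPM + 1), at 1.40 and 2.09 (adjusted p = 0.00265 and 0.00869), and with the pseudocount of 0.1. Tcf12 was called in 6 of 15 other settings in all, among them library sizes alone (1.165, edgeR adjusted p = 0.00885), the extracranial tumors alone (1.09, edgeR adjusted p = 0.0268) and the omission of R26P115 and 29048 (1.02, edgeR adjusted p = 0.0208).

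**Figure D4:**
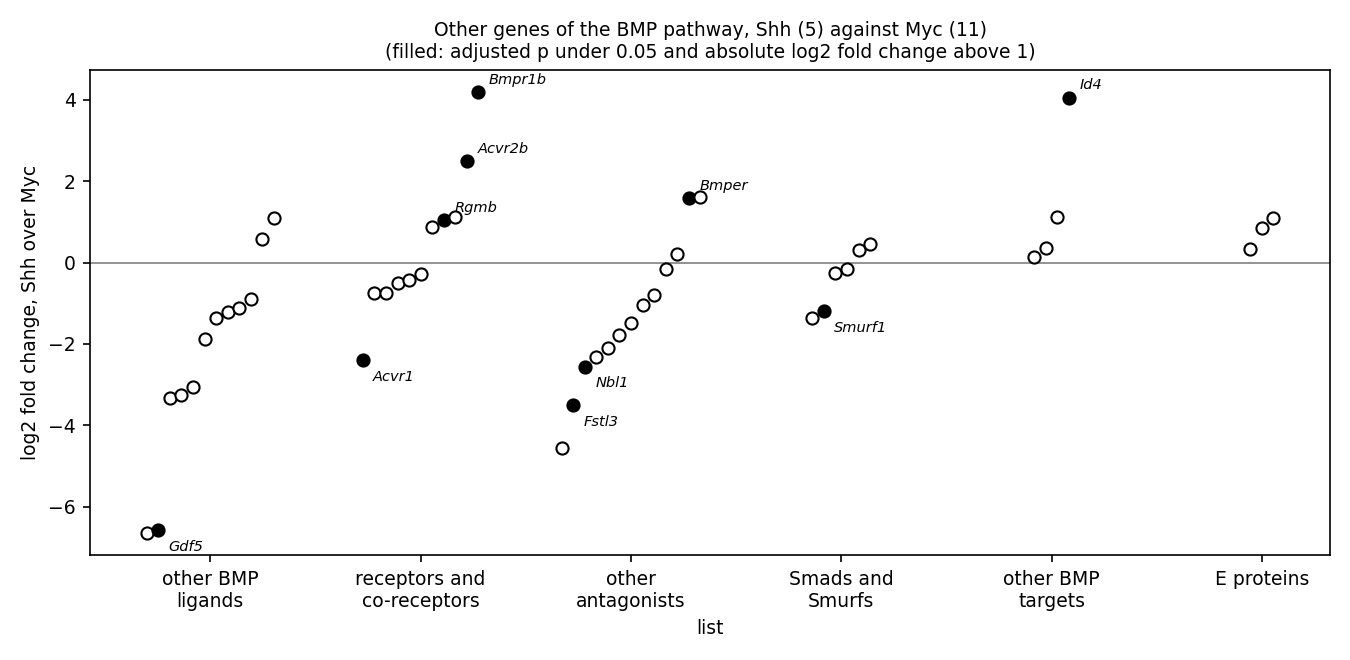
Each point is 1 of 49 pathway genes, with its log2 fold change of Shh over Myc (TMM scaling) on the vertical axis and its list on the horizontal axis, and genes called are filled and named. Bmpr1b and Id4 lie highest at 4.18 and 4.05, and Gdf5, at -6.58, lies lowest of the genes called.

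Within the Myc tumors, the intracranial and extracranial sites were compared in a fit of their own. None of the 10 genes was called with edgeR or with DESeq2, which gave no adjusted p for Bmp7, and none had an unadjusted p under 0.05 with edgeR. Of all 21261 genes tested with edgeR, 0.00470% were called (1 gene), and of 19439 tested with DESeq2, 490 were called. Smad7 had the lowest unadjusted p, with a log2 fold change of intracranial over extracranial of 0.64 (standard error 0.39, edgeR adjusted p = 0.513). Id1 had 1.21 (standard error 0.78, edgeR adjusted p = 0.536) and Nog -1.07 (standard error 0.95, edgeR adjusted p = 0.669).

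The spread within each site was wide for Bmp7 and Grem1, at log2 fold changes of -2.005 (standard error 2.15, edgeR adjusted p = 0.712) and -1.44 (standard error 1.81, edgeR adjusted p = 0.760). With 43990A counted as intracranial, the value of Bmp7 became 6.64 (standard error 2.55, edgeR adjusted p = 0.387). The others lay between -0.18 for Bmp4 and 0.29 for Smad6. Smad6 also rested on 43990A, at 1.78 (standard error 0.44, edgeR adjusted p = 0.305) without it and 2.15 (standard error 0.53, edgeR adjusted p = 0.246) with it counted as intracranial. Without R26P115 Id1 was 0.54, without R26P170 Grem1 was -4.63 and without 43990A Nog was -0.42 (edgeR adjusted p = 0.761, 0.441 and 0.901). Of the 49 pathway genes, none was called between the sites with edgeR, and 7 had an unadjusted p under 0.05, near the 12.3% of all genes that did.

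In mean TPM, the order of the 3 groups was intracranial Myc, extracranial Myc and Shh for Bmp2, Id1, Smad6 and Smad7. Extracranial Myc came first and Shh last for Bmp4 and Grem1. For Nog the order was Shh, extracranial Myc and intracranial Myc, at 6.46 ± 2.43, 2.58 ± 2.40 and 1.20 ± 1.23 TPM (SD, n = 5, 5 and 6). Of these steps, only those that set Smad7, Bmp4 and Grem1 of Shh tumors below each Myc group passed edgeR's test, and no neighbouring groups of the other 7 genes did. Bmp7, whose groups overlapped throughout, was at 89.0 ± 197 TPM (SD, n = 5) in extracranial Myc, 32.4 ± 48.3 (SD, n = 5) in Shh and 19.1 ± 36.1 (SD, n = 6) in intracranial Myc tumors.

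Relations among the 10 genes were computed on log2(TPM + 1) over the 11 Myc tumors, since r over both subgroups would include the difference between them and 5 Shh tumors are too few. Of the 45 pairs, 25 had a positive Pearson's r. After Benjamini-Hochberg adjustment over the 45 pairs, none passed by Pearson's r or by Spearman's rho, and 2 and 3 pairs had an unadjusted permutation p under 0.05. The closest pair was Bmp7 and Smad6, with r = 0.80 (permutation p = 0.00308, adjusted p = 0.139) and rho = 0.66 (permutation p = 0.0308, adjusted p = 0.591). Without the 2 tumors farthest from the median of Bmp7, r was 0.55. Among the 8 numbered Myc mice r was 0.92 (exact permutation p = 0.00627, adjusted p = 0.261) and 0.15 without their 2 farthest tumors, so that it rests on those, and the 3 R26P Myc tumors are too few for a value.

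Id3 and Nog followed, with r = 0.66 (permutation p = 0.0243, adjusted p = 0.466) and rho = 0.50 (permutation p = 0.120, adjusted p = 0.848), and r was 0.29 without the 2 farthest tumors. The 3 Id genes had r = 0.58 for Id1 and Id2, 0.49 for Id1 and Id3 and 0.42 for Id2 and Id3, none of which passed (permutation p = 0.0615, 0.124 and 0.201, adjusted p = 0.466, 0.620 and 0.679). Their rho values were 0.48, 0.34 and 0.41 (permutation p = 0.138, 0.313 and 0.212, adjusted p = 0.848 for each). Without the 2 farthest tumors, r was 0.17, 0.65 and 0.79.

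**Figure D5:**
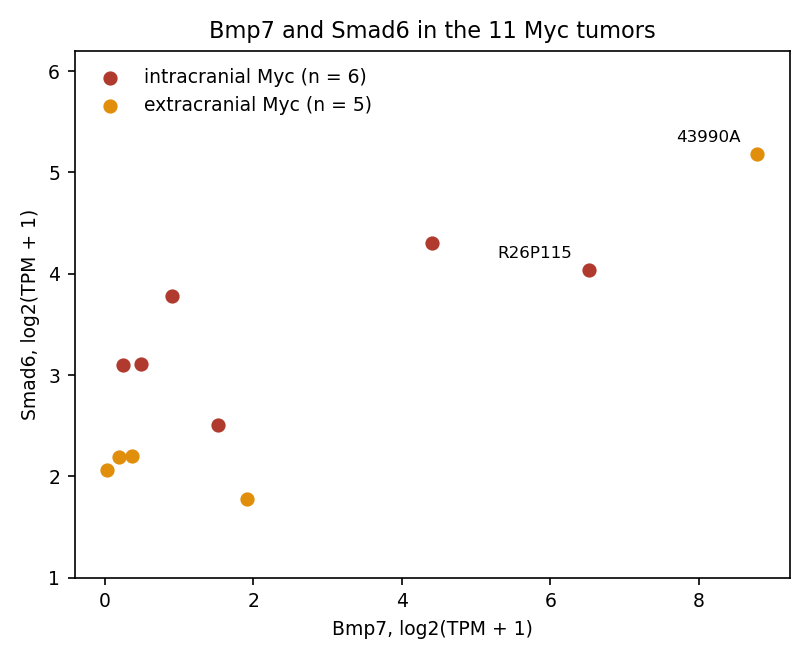
Each point is 1 of 11 Myc tumors, with Bmp7 on the horizontal and Smad6 on the vertical axis, both as log2(TPM + 1), colored by site. The tumor of 43990A is highest in both genes, and r falls from 0.80 to 0.55 without the 2 tumors farthest from the median of Bmp7.

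Relations of the 10 genes with the summed fibroblast, leukocyte and endothelial markers were computed in the same way. Of 30 relations, none passed after adjustment over the 30, and 4 had an unadjusted permutation p under 0.05 by each coefficient. The closest was Bmp2 with fibroblast markers, at r = 0.67 (permutation p = 0.0254, adjusted p = 0.270), rho = 0.85 (permutation p = 0.00198, adjusted p = 0.0594) and r = 0.80 without the 2 farthest tumors. Smad6 ran against leukocyte markers, at r = -0.66 (permutation p = 0.0270, adjusted p = 0.270), rho = -0.77 (permutation p = 0.00791, adjusted p = 0.119) and r = -0.85 without the 2 farthest tumors. For the 3 genes called between the subgroups, r with fibroblast markers was 0.32 for Smad7 (permutation p = 0.338), -0.46 for Bmp4 (permutation p = 0.153) and -0.19 for Grem1 (permutation p = 0.588), with rho of 0.25, -0.62 and -0.10 (permutation p = 0.467, 0.0478 and 0.775), adjusted p values of 0.328 or more, and r of 0.0075, -0.53 and -0.39 without the 2 farthest tumors. With leukocyte markers r was 0.13, -0.14 and -0.02 (permutation p = 0.711, 0.689 and 0.950) and rho -0.13, -0.05 and -0.01 (permutation p = 0.713, 0.880 and 0.990), and r was -0.42, -0.37 and -0.11 without the 2 farthest tumors. With endothelial markers r was -0.51, -0.04 and 0.11 (permutation p = 0.107, 0.899 and 0.727), and -0.73, 0.48 and 0.09 without the 2 farthest tumors. The rho of Smad7 with endothelial markers was -0.56 (permutation p = 0.0760, adjusted p = 0.328). Id1 with endothelial markers had r = 0.21 (permutation p = 0.523, adjusted p = 0.950), rho = 0.12 (permutation p = 0.735) and r = -0.16 without the 2 farthest tumors. With leukocyte markers Id1 had r = -0.63 (permutation p = 0.036, adjusted p = 0.270), rho = -0.66 (permutation p = 0.0308, adjusted p = 0.308) and r = -0.76 without the 2 farthest tumors.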

How the data were processed

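Per the labels, libraries were strand-specific, from polyA RNA. The authors aligned reads to mm10 with STAR 2.5.3a (submitters' processing notes) and deposited whole-number counts per gene and TPM values; the gene annotation is not given in the sources used here. From these, subgroups were compared with edgeR 4.0.16 (TMM, glmQLFit, glmQLFTest) in R 4.3.3 on genes with any count, with p values adjusted by Benjamini-Hochberg over every gene tested (adjusted p under 0.05, absolute log2 fold change above 1). The test was checked on simulated counts in which all genes had the same spread, so the check does not cover genes as uneven as Bmp7 and Grem1. The Myc sites were fitted alone. Alternatives used DESeq2 1.42.0, limma 3.58.1 with trend on log2(TPM + 1) or log2(TPM + 0.1), other scalings, the scheme of mouse names, the day of tamoxifen and omitted tumors. Relations used permutation tests of 100000 resamples, or all permutations for 8 tumors, two-sided, in Python 3.11.15. Levels between genes were compared as TPM, and depth (17889968 to 110177889 counts per tumor) limits the low genes.

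Named were the 10 genes, 17 pathway genes by name and further pathway genes called with a mean count of at least 50, up to 3 each way per list. A gene of these lists is not reported here and is left out of their counts. The members and lists were chosen with earlier results of these data known. Each tumor came from its own mouse. The labels give no sequencing batch. Positions are from GENCODE M21 (GRCm38).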

Additional observations from a re-analysis of the deposited data

Results flagged for a closer look

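In 30 groups of tumors (10 genes in 3 groups), 3 single tumors stood far from the rest of their group on the log2(TPM + 1) scale, all in the 5 extracranial Myc tumors. Each was marked because its gap to the nearest tumor was more than 0.71 of the whole range of its group, a size that chance gives in about 1 of 20 groups. Bmp7 in 43990A was 442 TPM, with 2.75 TPM in the next tumor, and the gap was 0.786 of the range. Smad6 in 43990A was 35.2 TPM, with 3.62 TPM in the next tumor and a gap of 0.875 of the range. Id3 in 43825B was 82.3 TPM, with 561 TPM in the next tumor and a gap of 0.822 of the range.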

How the results depend on the processing

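No paired analysis was possible because the labels carry no replicate numbers and the tumors are from different mice. Between the subgroups, 3 of the 10 genes were called, 1 (Smad7) within the numbered mice and 0 within the R26P mice, 4 with DESeq2 (Id1 added) and 2 with limma (Smad7 and Nog), and 2 to 3 when each tumor was left out in turn. Smad7 and Bmp4 stayed lower in Shh under all alternatives run, with log2 fold changes of -2.52 to -1.505 and -2.57 to -0.76, as did Grem1 (-9.37 to -2.69). Between the sites the count was 0 under all alternatives, and no pair of genes passed in any setting. Library sizes alone, and the omission of R26P115 with 29048 or with 43990A, were chosen after seeing the data. Unless said otherwise, the cause of the changes in sign below was not tested, and none of the reversed values passed the test. Depth limits Nog and the low values of Bmp7 and Grem1, which reach 1 count.

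For Shh over Myc, Bmp7 turned to 0.87 with DESeq2, 1.84 and 2.87 with limma (pseudocounts 1 and 0.1), 0.28 within R26P mice, 5.44 at E6 and 0.079 against intracranial tumors, and ran from -2.71 to 0.78 with a tumor left out. DESeq2 gave no adjusted p for Bmp7, so its value there was not tested for a call. With the same pair of limma fits Id2 was 0.12 and 0.12, Id3 0.20 and 0.20, Smad6 0.044 and 0.075, Chrd 0.17 and 0.22, Bmpr1a 0.059 and 0.060, Bmpr2 0.24 and 0.25 and Smad4 0.38 and 0.39. With library sizes alone Bmpr2 was 0.0051 and Smad4 0.16. Within numbered mice Id2 was 0.17 and Tcf3 -0.24, and within R26P mice Msx1 was -0.29, Chrd 0.47, Smad9 -2.77 and Smad4 0.11. At E6 alone Bambi was 0.051, Chrd 0.27 and Bmpr2 0.055. Msx1 was -0.022 with the name scheme as a covariate and -0.58 against intracranial tumors, Gdf5 0.13 against extracranial tumors and Smad9 -0.12 without R26P115 and 29048. With a tumor left out, Msx1 ran from -0.82 to 1.26 and Smad9 from -0.89 to 1.06.

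For intracranial over extracranial Myc, the R26P fit has 1 extracranial tumor, assumed to vary like the others. The limma fits gave -0.45 and -0.68 for Bmp2, 0.32 and 0.44 for Bmp4, 0.092 and 0.73 for Bmp7 and -0.031 and -0.033 for Id2. The name scheme as a covariate gave -0.069 for Bmp2 and -0.21 for Id2. Numbered mice gave -0.44 for Id2 and -0.18 for Smad6, and R26P mice -2.41 for Bmp2, 1.87 for Bmp4, 4.32 for Bmp7 and -0.068 for Id3. E8 alone gave -0.29 for Id3 and -0.13 for Smad6. With 43990A as intracranial Bmp7 was 6.64 and Nog 0.26, and without R26P115 and 43990A Bmp7 was 2.51 and Id2 -0.35. With a tumor left out, Bmp2 ran from -1.11 to 0.41, Bmp4 from -0.54 to 0.54, Bmp7 from -4.19 to 4.74, Id2 from -0.25 to 0.41 and Id3 from -0.10 to 0.37.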
